A study of Mus musculus with 12 samples.

Results

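Of the 24079 genes in the deposited counts, 8 serpin genes were followed here: Serpina3n, Serpini1, Serpine2, Serpinb6a, Serpinb1a, Serpinh1, Serping1 and Serpinf1. They are the serpins that carry most of the family's reads in these libraries together with known roles in brain, and they were chosen by name with earlier results of the same data in view. Serpina3n in particular was selected on its difference between the genotypes, so its KO minus wild-type values are given as a description without a test. Over the 12 libraries, 17823 genes reached a total of 15 reads and were tested, all 8 among them, and 63 genes of the table have a symbol that starts with Serpin.

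The libraries hold ribosome-associated polyadenylated RNA, immunoprecipitated from hippocampus through Rpl22, a ribosomal protein that carries an HA tag (the RiboTag approach). Both genotypes carry the Wfs1-CreERT2 transgene and the RiboTag allele, on a C57BL/6J background, and all mice were males of 2 to 6 months that received tamoxifen on 3 days and were used 1 week later. The Cre recombinase, driven by the Wfs1 promoter, switches on the tag in CA1 pyramidal cells. The 6 wild-type (WT) libraries come from Wfs1-CreERT2:RiboTag littermates and the 6 knockout (KO) libraries from Wfs1-CreERT2:RiboTag:Fmr1-/y mice, which lack Fmr1, the gene of the RNA-binding protein FMRP. Each library is a pool of 4 to 6 mice. Fmr1 had 1971 to 2608 reads in every WT library, 0 reads in 5 KO libraries and 1 read in the other KO library. Between 39400980 and 65565479 reads were counted on genes per library. In such pooled tissue, fewer cells of a type, less RNA per cell and less of the RNA on ribosomes cannot be told apart.

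Serpins are proteins of a shared fold, most of which inhibit serine proteases. An exposed reactive centre loop acts as bait: the protease cuts it and is trapped in a covalent complex, which receptors such as Lrp1 then clear. In brain the secreted serpins act on proteases of the extracellular matrix and of the plasminogen and thrombin systems, which are linked to synaptic plasticity. Some members of the family have lost the inhibitory function and serve as chaperones or signalling factors.

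Mice have many copies of the clade A3 genes next to each other on chromosome 12, where humans have a single gene, SERPINA3, for alpha-1-antichymotrypsin. Serpina3n lies on the plus strand from 104406646 to 104414334 (mm10; RefSeq coordinates on GRCm38, the same build), and 6 other genes of this cluster had at least 15 reads in all. The copies differ most in the loop, so the stretch that codes for its start, 72 bases from the conserved beginning of the loop (bases 1093 to 1164 of the coding sequence in Serpina3n), is shown for Serpina3n and for the 5 protein-coding copies with at least 15 reads. The sequences are from GENCODE M21 transcripts, and capitals mark bases that differ from Serpina3n at the same place.
Serpina3n: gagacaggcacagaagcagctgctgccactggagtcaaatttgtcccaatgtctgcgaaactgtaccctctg
Serpina3i: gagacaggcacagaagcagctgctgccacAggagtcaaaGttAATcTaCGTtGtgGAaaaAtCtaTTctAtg
Serpina3m: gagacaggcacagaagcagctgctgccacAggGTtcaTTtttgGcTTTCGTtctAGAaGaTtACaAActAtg
Serpina3g: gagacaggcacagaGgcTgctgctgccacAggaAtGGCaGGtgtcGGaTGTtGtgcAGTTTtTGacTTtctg
Serpina3c: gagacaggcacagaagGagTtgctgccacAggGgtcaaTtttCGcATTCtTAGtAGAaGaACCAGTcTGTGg
Serpina3f: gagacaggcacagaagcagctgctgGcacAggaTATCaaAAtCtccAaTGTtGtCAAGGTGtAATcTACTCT

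The opening bases are shared and the rest of the stretch diverges, with 17 of 72 bases different in Serpina3i, 22 in Serpina3m, 24 in Serpina3g, 28 in Serpina3c and 30 in Serpina3f. This bears on the measurement, because reads were 50 bases long and were kept with up to 3 mismatches. Within the loop stretch of Serpina3n, none of its 23 windows of 50 bases came within 3 mismatches of another serpin transcript. Over the whole Serpina3n transcript, 35.1% of the 2015 windows did, and 6.90% were identical to a window elsewhere, with Serpina3g the closest gene. The shared windows were nearly as frequent in Serpinb1a (34.6%, closest to Serpinb1b) and less so in Serpinb6a (18.8%, closest to Serpinb6c). In Serpini1 0.74% of windows were shared, and no window was shared in Serpine2, Serpinh1, Serping1 or Serpinf1. Reads of Serpina3n, Serpinb1a and Serpinb6a may therefore be partly lost or assigned to another copy, which was not tested. For Serpinb1a the neighbour was as abundant, with 3123 reads of Serpinb1b against 3016 of Serpinb1a, so their values are uncertain. Serpinb6c had 101 reads against 28342 of Serpinb6a, and the neighbours of Serpina3n were low too. Serpina3n had 24223 reads in all, against 460 for Serpina3g, 102 for the pseudogene Serpina3h, 101 for Serpina3f, 99 for Serpina3c, 91 for Serpina3m and 34 for Serpina3i.

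Levels of different genes were compared as CPM per kilobase of the longest coding transcript, where CPM stands for counts brought to a common depth by TMM scaling. In WT libraries Serpini1 stood highest with 61.6 ± 5.11 CPM per kb (SD, n = 6), and Serpine2 followed with 49.0 ± 5.70. Serpinb6a (27.7 ± 2.32) and Serpina3n (27.1 ± 3.76) came next, and their libraries overlapped. Serpinh1 was at 17.9 ± 2.66 CPM per kb and Serpinf1, Serping1 and Serpinb1a at 4.56 ± 0.77, 3.99 ± 0.64 and 2.55 ± 0.39. Of the neighbours in this order, the libraries lay apart between Serpine2 and Serpinb6a, between Serpinh1 and Serpinf1, and between Serping1 and Serpinb1a, and overlapped in the other 4 steps. In KO libraries the order was the same except for Serpina3n, which at 14.5 ± 2.66 CPM per kb stood below Serpinh1 (21.4 ± 4.23), with overlapping libraries. On this per-length scale Serpini1 exceeded 93.0% and Serpinb1a 38.6% of the 15663 tested genes with a known transcript length.

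**Figure D1:**
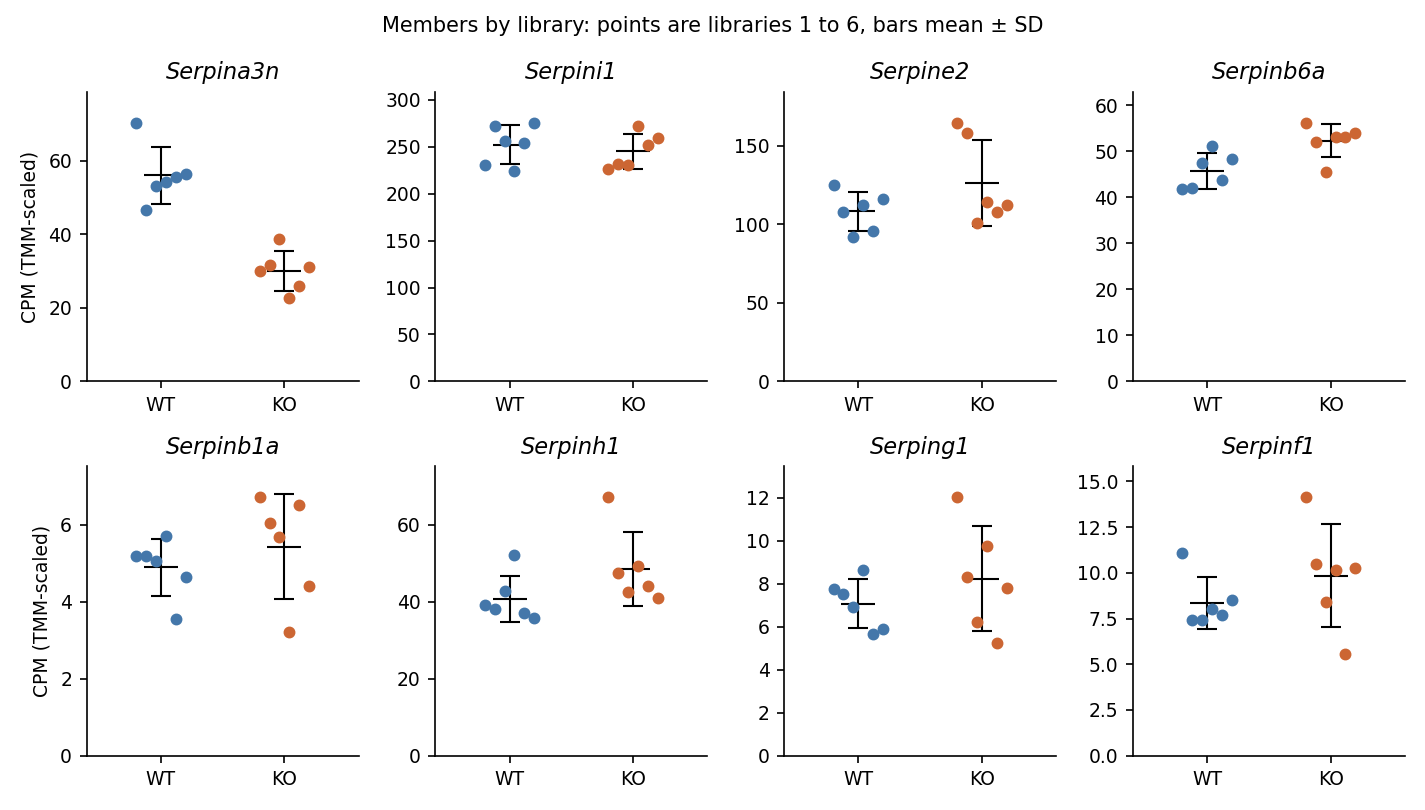
CPM (y axes, from 0) of the 8 members in the 6 WT (blue) and 6 KO (orange) libraries, in replicate order from left to right, with the mean ± SD as bars. Serpina3n lay between 46.7 and 70.3 CPM in WT and between 22.8 and 38.8 CPM in KO libraries, and in the other 7 genes the libraries of the genotypes overlapped.

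Serpina3n, a secreted inhibitor known for its induction in reactive astrocytes, was the member with separate genotypes. In WT libraries it ranged from 46.7 to 70.3 CPM with a median of 54.8, and in KO libraries from 22.8 to 38.8 CPM with a median of 30.6. The highest KO library, replicate 3, lay below the lowest WT library, replicate 2. The KO mean was 53.6% of the WT mean (log2 fold change -0.90, SE 0.12, 95% interval from -1.14 to -0.66). These values selected the gene. The study lists it, from these same libraries, among its downregulated genes and reports the same direction by qRT-PCR. That qRT-PCR was not used here. The adjusted p of edgeR was under 0.05 in 0.0224% of all genes, and in 0.41% every KO library was below every WT library. Serpina3n is among both by the way it was chosen, so nothing is read from that. Leaving out each library in turn, its log2 fold change stayed between -0.99 and -0.83. The 6 other A3 genes were low, at means of 0.82 CPM (Serpina3g) or less. Serpina3g had 30 to 49 reads in each WT and 30 to 45 in each KO library (log2 fold change -0.28, SE 0.26). Serpina3c, Serpina3f, Serpina3h and Serpina3m had values below 0 (-0.62, -1.64, -0.83 and -1.65) and Serpina3i a value of 0.41, with SEs between 0.74 and 1.09. None of the 6 passed the threshold.

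Serpini1 (neuroserpin, chromosome 3 from 75557493 to 75642523) is a secreted inhibitor of tissue plasminogen activator that neurons express. It ranged from 224.5 to 275.4 CPM in WT (median 255.0) and from 226.3 to 272.5 CPM in KO libraries (median 242.1). The ranges nearly coincided, and the log2 fold change was -0.04 (SE 0.07, 95% interval from -0.18 to 0.10, adjusted p = 0.944 by Benjamini and Hochberg's method, edgeR). Its SD was 8.29% of the mean in WT libraries, the smallest of the 8 genes, and 7.60% in KO libraries, where Serpinb6a alone had a smaller one (6.93%).

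Serpine2 (protease nexin-1, chromosome 1 from 79794317 to 79858665) is a secreted inhibitor of thrombin and plasminogen activators that glia and neurons make. Its WT libraries ranged from 92.0 to 125.2 CPM (median 110.3) and its KO libraries from 100.9 to 164.6 CPM (median 113.5). KO replicates 1 and 2, at 164.6 and 158.0 CPM, lay above all WT libraries, while the other 4 KO libraries lay among them. The log2 fold change was 0.22 (SE 0.12, 95% interval from -0.03 to 0.47, adjusted p = 0.687, edgeR). Without KO replicate 1 it was 0.13. The SD was 21.8% of the mean in KO and 11.6% in WT libraries.

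The clade B members act inside cells. Serpinb6a (chromosome 13 from 33917918 to 34002794), an inhibitor of cathepsin G and other proteases that protects cells from within, ranged from 41.8 to 51.2 CPM in WT (median 45.6) and from 45.5 to 56.1 CPM in KO libraries (median 53.1). Its log2 fold change of 0.19 (SE 0.07, 95% interval from 0.04 to 0.34) had an unadjusted p of 0.014 and an adjusted p of 0.475 in edgeR's test, so it did not pass, and all but KO replicate 3 of the KO libraries lay above every WT library. Serpinb1a (chromosome 13 from 32842092 to 32853206), an inhibitor of neutrophil elastase, was the lowest member. It had 3.55 to 5.71 CPM in WT (median 5.13) and 3.21 to 6.72 CPM in KO libraries (median 5.86), from 140 to 426 reads per library. The genotypes overlapped through most of their ranges (log2 fold change 0.15, SE 0.17, adjusted p = 0.899, edgeR). That value ran from 0.075 without WT replicate 5 to 0.26 without KO replicate 4.

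The remaining members act outside the usual targets or without inhibition. Serpinh1 (HSP47, chromosome 7 from 99345375 to 99353239), a collagen chaperone of the endoplasmic reticulum, ranged from 35.6 to 52.0 CPM in WT (median 38.5) and from 41.0 to 67.1 CPM in KO libraries (median 45.7). KO replicate 1 alone lay above all WT libraries (log2 fold change 0.25, SE 0.12, unadjusted p = 0.045, adjusted p = 0.618, edgeR). Without that library the value was 0.14, the lowest of the fits that each left out a library.

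Serping1 (C1 inhibitor, chromosome 2 from 84765360 to 84775444), which restrains the complement and contact systems, had 5.65 to 8.62 CPM in WT (median 7.21) and 5.24 to 12.01 CPM in KO libraries (median 8.05). Serpinf1 (pigment epithelium-derived factor, chromosome 11 from 75410029 to 75422623), a secreted factor without inhibitory action, had 7.40 to 11.1 CPM in WT (median 7.84) and 5.56 to 14.1 CPM in KO libraries (median 10.2). In both genes the KO libraries spread to either side of the WT libraries. Their log2 fold changes were 0.22 (SE 0.17, adjusted p = 0.828) and 0.23 (SE 0.17, adjusted p = 0.817) in edgeR's test. Without KO replicate 1 they were 0.078 and 0.10, and without KO replicate 5 they were 0.32 and 0.36. KO replicate 1 was the highest library for Serpinb6a, Serpinb1a, Serpinh1, Serping1 and Serpinf1, and for Serpine2 as well.

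Apart from Serpina3n, then, 6 of the 7 members had a log2 fold change above 0, with a median of 0.22, where 51.4% of all genes tested had a value above 0 and their median was 0.00. The median of the 7 rested in part on KO replicate 1, without which it was 0.10, with 6 still above 0. At an unadjusted p under 0.05, 2 of the 7 were higher and 0 lower, against 4.29% higher and 3.67% lower of all genes. None of the 7 passed the adjusted threshold in edgeR's test or in DESeq2's Wald test, which called 84 genes or 0.471% of all. In the family as a whole, 19 of 63 genes had no read, 33 were tested and 13 had a mean of at least 1 CPM. The 5 of these outside the 8 members were Serpinb1b, Serpinb9, Serpinb8, Serpinb6b and Serpind1 (heparin cofactor II), with log2 fold changes of 0.34, -0.04, -0.05, -0.12 and 0.52 and adjusted p between 0.710 and 0.979 in edgeR's test. Besides Serpina3n, no serpin passed in edgeR's or DESeq2's test. Of the 33 tested, 3 were higher at an unadjusted p under 0.05 in edgeR's test, against 4.29% of all genes. Serpinb11 is among these 3, with 0 reads in every WT library and 16 over the KO libraries. It reached the filter of 15 reads through KO libraries alone, so nothing is read from its value.

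**Figure D2:**
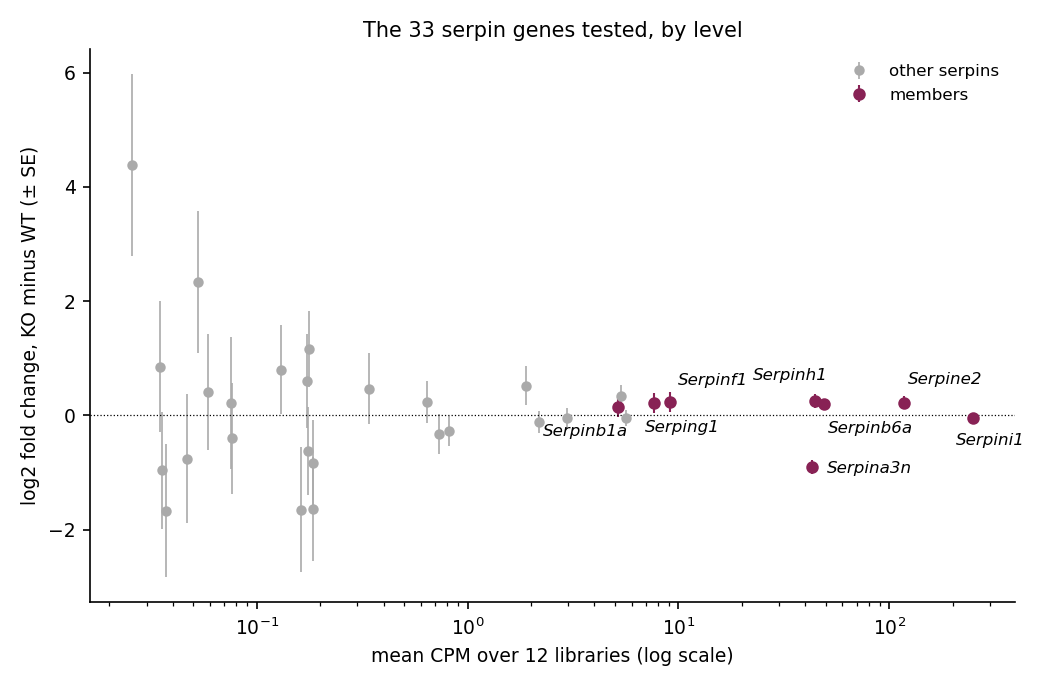
Log2 fold change, KO minus WT (y axis, bars ± SE), against the mean CPM (x axis, log scale) of the 33 serpin genes tested, with the 8 members in purple and named. Serpina3n stands at -0.90 and the other members between -0.04 and 0.25, while genes under 1 CPM scatter widely with large errors.

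The cell types in the libraries were described by the mean log2 CPM of marker lists. The labelled cell type was present, with Camk2a at 6207 and Wfs1 at 1272 CPM in WT libraries. Markers of other cells were well above 0 too, led by the astrocyte glutamate transporter Slc1a2 at 1238 CPM and by Ttr, a marker of choroid plexus, at 8323 CPM in WT libraries. The study reports by qRT-PCR that Gfap, Cnp, Aif1 and Gad1 were lower in the immunoprecipitate than in the input RNA. No input library is among the 12 here, so enrichment was not measured. All 81 genes of the 11 lists had enough reads to be tested, and none was at 0 over the 12 libraries. Of all genes tested, 51.4% had a log2 fold change above 0. At an unadjusted p under 0.05 in edgeR's test, 4.29% of all genes were higher and 3.67% lower in KO libraries. The astrocyte level was 7.19 ± 0.10 in WT and 7.41 ± 0.20 in KO libraries (difference 0.22, SD over n = 6 each, two-sided exact permutation p = 0.030, adjusted over 11 lists 0.167), and all 11 astrocyte genes had a log2 fold change above 0, 8 of them at an unadjusted p under 0.05. Summed over the list, astrocyte genes had 2625 to 3169 CPM in WT and 2899 to 4306 CPM in KO libraries. The endothelial level differed by 0.37 (exact permutation p = 0.019, adjusted 0.167), with 47.6 to 67.9 CPM summed in WT and 63.3 to 88.9 CPM in KO libraries. The choroid plexus level had the largest difference of the 11 lists, 0.41 (exact permutation p = 0.082, adjusted 0.243), with all 6 genes above 0 and 3 of them at an unadjusted p under 0.05. Its genes summed to 6399 to 11894 CPM in WT and 8326 to 17546 CPM in KO libraries. The CA1 pyramidal level was lower by a difference of -0.15 (exact permutation p = 0.110, adjusted 0.243), and of -0.096 without KO replicate 4. All 8 CA1 genes had a value below 0, 3 of them at an unadjusted p under 0.05, among them Wfs1 at 82.9% of its WT mean. This is the direction of Serpina3n, and the part of the CA1 level in its value was not tested. None of the 11 lists passed after adjustment.

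The members were therefore fitted again with the astrocyte level of each library as a covariate. Serpina3n kept its size, with a log2 fold change of -0.90 (SE 0.15) beside -0.90 (SE 0.12) without the covariate. In that fit no serpin had an adjusted p under 0.05, and 2 of all 17823 genes did, against 4 without the covariate. Serpine2 went from 0.22 to -0.11, Serping1 from 0.22 to -0.18, Serpinf1 from 0.23 to -0.12 and Serpinb1a from 0.15 to -0.032. Serpinh1 went from 0.25 to 0.0017 and Serpini1 from -0.04 to 0.025, and Serpinb6a from 0.19 to 0.14. With the covariate, 3 of these 7 genes were above 0 and 4 below, and all 7 intervals included 0. Of all 17823 genes tested, 8747 were above 0 in that fit. The interval of Serpina3n ran from -1.21 to -0.58. This is a description only, since Serpina3n was chosen on this contrast. The astrocyte level itself differed by 0.22 between the genotypes, without passing after adjustment, and covariate and genotype are therefore not independent in this fit.

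**Figure D3:**
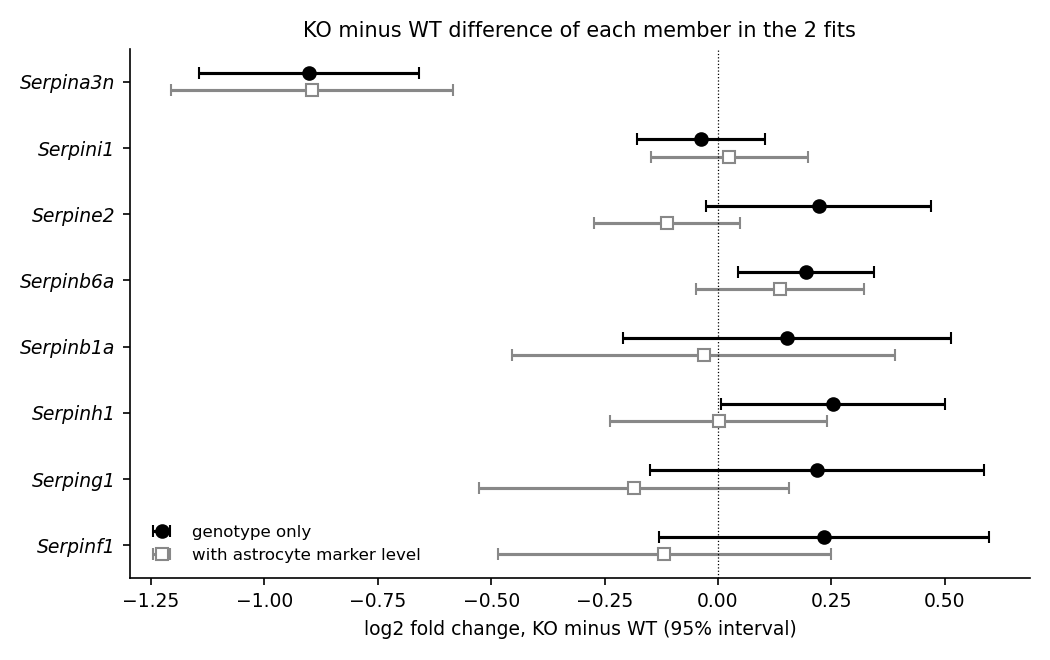
Log2 fold change, KO minus WT (x axis), of each member with its 95% interval, in the fit with genotype only (black circles) and with the astrocyte marker level as a covariate (open grey squares). Serpina3n stays near -0.90 in both, and Serpine2, Serpinb1a, Serping1 and Serpinf1 move from above 0 to below 0.

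How the members move among libraries of the same genotype does not depend on the contrast that chose Serpina3n. For this, the mean of each genotype was subtracted from the log2 CPM, and the remaining deviations over the 12 libraries were correlated for the 28 pairs of members and for the 88 combinations of a member with a marker list. Permutation tests within genotype were adjusted over all 116 relations. Only 2 passed, both between a member and a cell type.

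Serpine2 followed the astrocyte level (r = 0.93, permutation p = 0.00024, adjusted 0.027; rho = 0.91, permutation p = 0.00077, adjusted 0.045). The relation held in WT (r = 0.80) and KO libraries (r = 0.97) and at r = 0.86 without the 2 libraries farthest from the median, of which KO replicate 1 is the highest for both measures. Serpinb1a followed the endothelial level (r = 0.80, permutation p = 0.00047, adjusted 0.027; rho = 0.87, permutation p = 0.00035, adjusted 0.041), with r = 0.86 in WT, 0.79 in KO libraries and 0.79 without the 2 farthest libraries. With 11 libraries the r of the former stayed between 0.90 and 0.95 and that of the latter between 0.74 and 0.88. The adjusted p rose above 0.05 without any of KO replicates 1 to 3 or WT replicates 1 and 2 for both relations, without KO replicate 4 for Serpine2, and without KO replicate 5 or WT replicates 4 and 5 for Serpinb1a.

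The genes most like Serpine2 over the 13767 other genes of at least 1 CPM were, in order, Lrrc18 (r = 0.97), Aldh1l1 (0.96), Csrp1 (0.95), Aldoc (0.95) and Gfap (0.95). Aldh1l1, Aldoc and Gfap belong to the astrocyte list, so they repeat its relation with Serpine2 and add no support. Lrrc18 and Csrp1 are in none of the lists. By Pearson's r, Serping1 varied most closely with the microglia level (r = 0.83, permutation p = 0.0042, adjusted 0.097, rho = 0.78, permutation p = 0.0085), falling to r = 0.60 without the 2 farthest libraries. With the astrocyte level its r was 0.79 (permutation p = 0.0093, adjusted 0.13), its rho 0.80 (permutation p = 0.0053), and r without those libraries 0.64. Of the lists, Serpinh1 had its highest r with the choroid plexus level (r = 0.79, permutation p = 0.0040, adjusted 0.097, rho = 0.59, permutation p = 0.065), falling to 0.48. Its r was 0.77 with the mural level (rho = 0.57), falling to 0.27, and 0.75 with the microglia level (rho = 0.75), falling to 0.57. None of these passed after adjustment. Serpini1 stood apart in sign, with r below 0 in 16 of its 18 relations, none of which passed. Among pairs of members, the highest r was 0.78, between Serping1 and Serpinf1 (permutation p = 0.011, adjusted 0.13; rho = 0.65, permutation p = 0.046), and it was 0.22 in WT libraries alone. No pair passed.

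**Figure D4:**
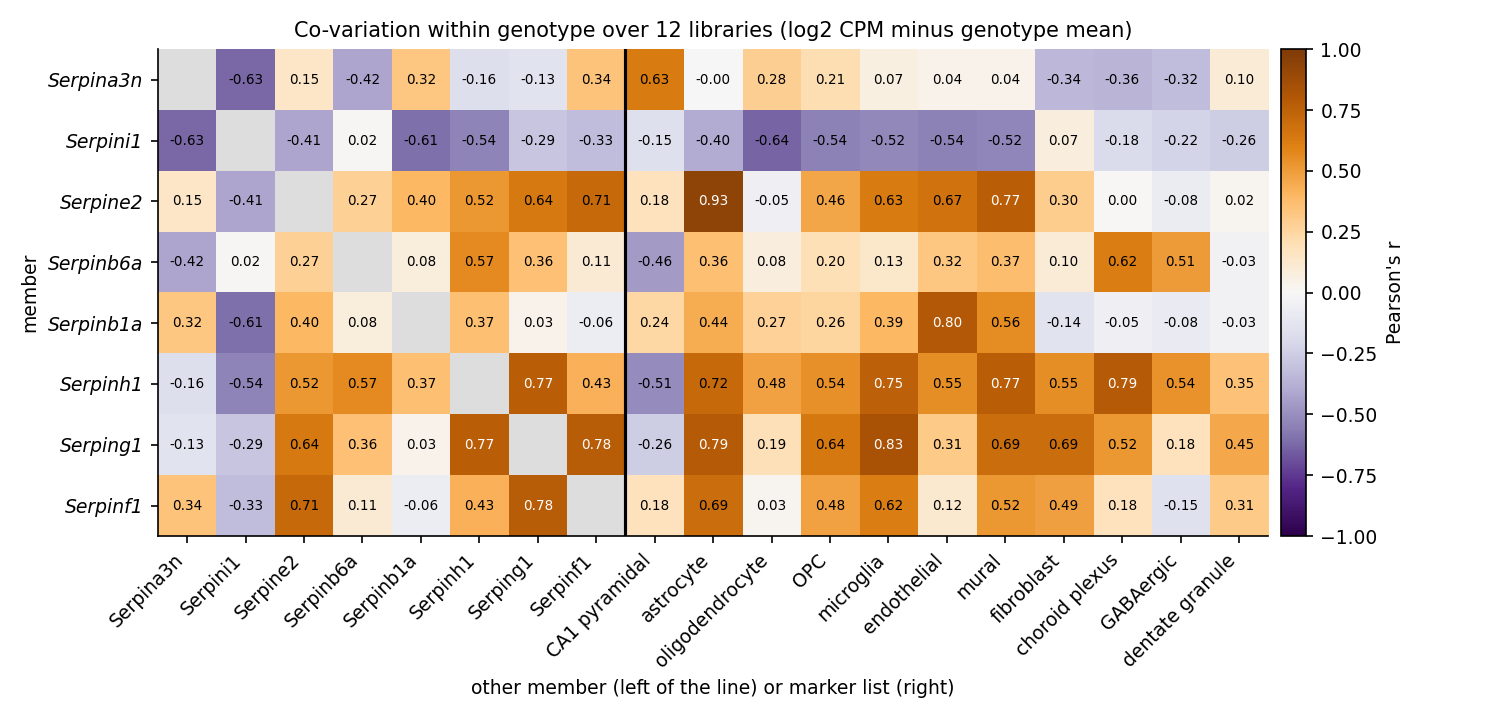
Pearson's r over 12 libraries, after subtraction of the genotype means, between each member (rows) and the other members or 11 marker lists (columns), on a colour scale from -1 to 1. The strongest fields are Serpine2 with astrocyte markers (0.93), Serping1 with microglia markers (0.83) and Serpinb1a with endothelial markers (0.80), while Serpina3n with astrocyte markers is at -0.00.

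For Serpina3n, no relation with any of the 11 lists passed. Its r was -0.00 with the astrocyte level (rho = 0.14; permutation p = 0.99 and 0.69), 0.07 with microglia and 0.04 with the endothelial level. The list it resembled most was that of CA1 pyramidal cells (r = 0.63, permutation p = 0.046, adjusted 0.25; rho = 0.62, permutation p = 0.050), which did not pass. Its lowest r with a member was -0.63, with Serpini1 (permutation p = 0.035, adjusted 0.24; rho = -0.56, permutation p = 0.064).

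The gene whose within-genotype pattern was most like that of Serpina3n, out of 13767 others, was Klk8 (r = 0.91, rho = 0.92, over 12 libraries). Klk8, or neuropsin, is a secreted serine protease of the kallikrein family that cleaves synaptic matrix and adhesion proteins, and the study names it as a protease that Serpina3n regulates. In KO libraries 1 to 6, Klk8 was at 11.9, 13.2, 14.3, 9.03, 11.1 and 12.8 CPM and Serpina3n at 30.02, 31.5, 38.8, 22.8, 25.8 and 31.1 CPM, and both were lowest in replicate 4 and highest in replicate 3. In WT libraries Klk8 was at 31.5, 18.4, 17.9, 21.97, 20.7 and 21.7 CPM and Serpina3n at 70.3, 46.7, 53.2, 54.1, 55.6 and 56.3 CPM. Replicate 1 was the highest for both, while the lowest library differed, replicate 3 for Klk8 and replicate 2 for Serpina3n. Within WT libraries alone r was 0.92 and within KO libraries 0.96, where Klk8 had rank 79 and rank 4 among the 13767 genes. Leaving out any library gave r between 0.87 and 0.94, and Klk8 still ranked 1 without WT replicate 1. The gene was picked as the most alike of many, so these are descriptions without a test, and the libraries share depth and the handling of each pool, whose part in the likeness was not tested.

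**Figure D5:**
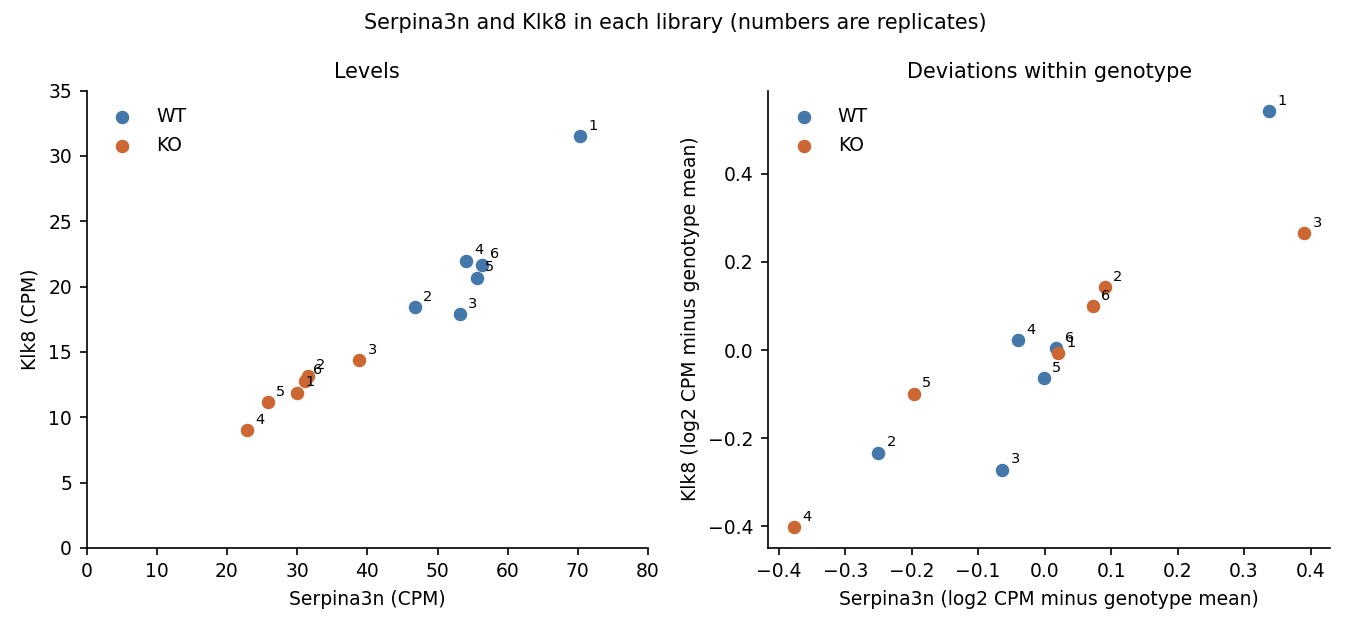
Klk8 (y axes) against Serpina3n (x axes) in each of the 12 libraries, WT in blue and KO in orange with replicate numbers, as CPM (left, axes from 0) and as log2 CPM minus the genotype mean (right). The genotypes are apart on the left, and on the right, where their means are removed, the libraries still line up (r = 0.91).

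The next genes in likeness to Serpina3n were Rem2 (r = 0.90, rho = 0.86), a small GTPase of neurons, Rasd1 (r = 0.89, rho = 0.91), a Ras-like protein named for its induction by dexamethasone, Glrx5 (r = 0.89, rho = 0.76), a mitochondrial glutaredoxin, and Lefty1 (r = 0.88, rho = 0.87), a secreted antagonist of Nodal signalling. Unlike Klk8, these genes had no difference between genotypes past the threshold, with log2 fold changes between -0.19 and 0.06 and adjusted p between 0.753 and 0.970 in edgeR's test.

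The partners of serpins were read in lists made by known function, with earlier results of these data known. The study reported Klk8, Masp1 and Itih3 among its differing genes, so their values here are a description and no support. Among serine proteases, 21 of the 24 listed genes were tested, and Klk8 was the 1 gene that passed, at 54.8% of the WT mean (log2 fold change -0.87, SE 0.14, adjusted p = 0.032, edgeR). That call was lost when 1 of 7 libraries was left out (KO replicates 1, 4, 5 and 6 and WT replicates 4, 5 and 6), when each library had to have 10 reads, and with each marker covariate. Those fits called 1 or 2 of all genes, against 4 in the main fit. The study also reports lower Klk8 and higher Itih3 mRNA by qRT-PCR, and lower KLK8 protein in hippocampal homogenates by Western blot. Neither was used here. At an unadjusted p under 0.05, 1 protease was higher and 3 were lower of 21, where 4.29% and 3.67% of all genes were, and the median of the list was -0.00. Masp1, of the lectin pathway of complement, had the next smallest p (5.91 ± 0.91 CPM in WT and 3.54 ± 0.95 in KO libraries, n = 6 each, log2 fold change -0.74, SE 0.17, adjusted p = 0.199, edgeR), and it passed in DESeq2's test. The most abundant proteases were Htra1, a secreted protease, and Furin, a proprotein convertase, with log2 fold changes of 0.27 and -0.07.

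Among the 15 receptors and cofactors none passed, and the median was -0.01. At an unadjusted p under 0.05, where 4.29% of all genes were higher and 3.67% lower, 1 was higher and 1 lower. These were Vtn (vitronectin, 0.38, SE 0.16) and the sorting receptor Sorl1 (-0.24, SE 0.07). Lrp1, the clearance receptor of serpin complexes, had a log2 fold change of -0.11 (SE 0.06) and the most abundant gene of the list, Sort1, of -0.11 (SE 0.06). In these 4 genes the libraries of the genotypes overlapped.

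Protease inhibitors of other families were read in the same way. Of 26 tested, 21 had a log2 fold change above 0 with a median of 0.18, where 51.4% of all genes were above 0. At an unadjusted p under 0.05 there were 5 higher and 1 lower, against 4.29% and 3.67% of all genes. None passed the threshold in edgeR's test. The number of higher genes was 2 without KO replicate 1, and 3 without WT replicate 3 or WT replicate 5. Over all genes the higher ones fell as well, from 764 to 554, 627 and 571 in these fits. With the astrocyte covariate 13 of the 26 were above 0, with a median of 0.0067, where 8747 of all 17823 genes were above 0. Itih3, a heavy chain of the inter-alpha-trypsin inhibitors, had a value of 0.52 (SE 0.12, adjusted p = 0.197) and Spint2, a Kunitz inhibitor, of 0.47 (SE 0.13, adjusted p = 0.292). The abundant Cst3 (cystatin C) had a value of 0.29 (SE 0.11) and Spock2 (testican-2) of -0.09 (SE 0.06).

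Serpina3n is commonly read as a sign of reactive astrocytes, and the other genes of that signature were listed without serpins. None of the 35 tested passed. The list had 22 genes above and 13 below 0, with a median of 0.05, where 51.4% of all genes were above 0. At an unadjusted p under 0.05, 6 were higher and 0 lower, against 4.29% and 3.67% of all genes. Without KO replicate 1 the list had 18 above 0, a median of 0.0018 and 3 higher genes. Of all genes, 554 of 17730 were higher without that library, against 764 of 17823 with it, and 8932 were above 0. With the astrocyte covariate 14 of the 35 were above 0, with a median of -0.080, 1 higher gene and 3 lower. In that fit 458 of all 17823 genes were higher, 537 lower and 8747 above 0. Gfap is in this list and in the astrocyte list that made the covariate, so list and covariate are not independent. The smallest p were those of the class I histocompatibility genes H2-D1 (0.36, SE 0.10), in which every KO library was above every WT library as in 0.213% of all genes, and H2-T23 (0.40, SE 0.13). Gfap, the most abundant, had a log2 fold change of 0.27 (SE 0.12) and Fkbp5, the next, of -0.07 (SE 0.07).

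Genes of collagen folding, the setting of Serpinh1, were above 0 in 12 of 13 cases with a median of 0.16. Of all genes tested, 51.4% were above 0. At an unadjusted p under 0.05, 5 of the 13 were higher and 0 lower, against 4.29% and 3.67% of all genes. The number of higher genes was 3 without KO replicate 1, KO replicate 5 or WT replicate 2. Over all genes the higher ones fell as well, from 764 to 554, 680 and 588 in these fits. With the astrocyte covariate 9 of the 13 were above 0, with a median of 0.17 and 2 higher genes. In that fit 8747 of all 17823 genes were above 0 and 458 higher. Again none passed the adjusted threshold. Ppib (cyclophilin B) had a value of 0.25 (SE 0.06, adjusted p = 0.251, edgeR), with every KO library above every WT library as in 0.213% of all genes. Leprel2, a prolyl 3-hydroxylase, had 0.52 (SE 0.17) and P4hb (protein disulfide isomerase), the most abundant, 0.16 (SE 0.06). The fibroblast level, from collagen-making cells, differed by 0.29 between the genotypes (exact permutation p = 0.089, adjusted 0.243), and with it as a covariate Serpinh1 was at 0.09 (SE 0.12).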

How the data were processed

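The authors sequenced stranded libraries of polyadenylated RNA as single reads of 50 bases, aligned them with TopHat2 2.1.1 and Bowtie2 2.2.8 to mm10, dropped reads with more than 3 mismatches and counted the rest per gene with HTSeq 0.6.1p1 on the opposite strand. The deposited values are these raw counts. Genes with at least 15 reads in all were tested with edgeR 4.0.16 (R 4.3.3; TMM, quasi-likelihood fit, no covariate, Benjamini-Hochberg adjustment, threshold 0.05). SE is the log2 fold change divided by the square root of F. Marker levels and co-variation used log2 CPM with a prior count of 2 and, for co-variation, 100000 permutations within genotype (scipy 1.17.1). DESeq2 1.42.0 and limma 3.58.1 voom served as alternatives, and the scripts were tested on simulated counts. Depth was 39400980 to 65565479 reads per library. The members and gene lists were chosen with earlier results of these data known.

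Named genes are the members, the A3 serpins with at least 15 reads, other serpins of at least 1 CPM, the 2 genes with the smallest p and the 2 most abundant of each functional list, the 5 genes most like Serpina3n, and abundant markers. Lrrc18, Aldh1l1, Csrp1, Aldoc and Gfap as likenesses of Serpine2, and Serpinb11, were chosen after their values were seen. No source says whether libraries came from separate litters, so p-values measure the spread between these pools. Columns were assigned by sample title. The study's qRT-PCR was not used here.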

Additional observations from a re-analysis of the deposited data

Results flagged for a closer look

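In each genotype's 6 libraries, the members and marker levels were searched for a library far from the others, by its gap to the nearest other library over the range of the group. Of 38 groups, 3 exceeded Dixon's critical ratio for 6 samples, where chance gives about 1.9 (1 in 20). Serpinh1 was high in KO replicate 1 (ratio 0.678, 67.1 against 41.0 to 49.4 CPM). Serpinf1 was high in WT replicate 1 (ratio 0.698, 11.1 against 7.40 to 8.52 CPM). The mural marker level was high in KO replicate 1 (ratio 0.669, a mean log2 CPM of 3.23 against 2.66 to 2.85).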

How the results depend on the processing

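Serpina3n kept its direction in all 25 alternative fits, with a log2 fold change between -0.99 and -0.82. As it was chosen on this contrast, this is a description and no support. With the astrocyte, endothelial or fibroblast level as a covariate, 0 members and 0 serpins passed the threshold, in place of 1, at values of -0.90, -0.91 and -0.82 for Serpina3n. Over all 17823 genes these fits called 2, 1 and 1, against 4 without a covariate. The endothelial and fibroblast covariates, and the fit without replicate 1 of both genotypes, were added after seeing the data. Of the listed partner genes 1 passed, Klk8, against 3 in DESeq2 (Klk8, Itih3 and Masp1) and 0 with each covariate, with at least 10 reads in every library and without both replicates 1. It was 0 to 1 with each library left out, and 0 without KO replicates 1, 4, 5 or 6 or WT replicates 4, 5 or 6. Klk8, Itih3 and Masp1 are among the genes the study reported, so these calls are a description and no support. With the astrocyte covariate the log2 fold change turned for Serpini1 (0.025), Serpine2 (-0.11), Serpinb1a (-0.032), Serping1 (-0.18) and Serpinf1 (-0.12), with the endothelial covariate for Serpini1 (0.073), Serpine2 (-0.086) and Serpinb1a (-0.32), and with the fibroblast covariate for Serping1 (-0.065). The cause was not tested.

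With each library left out, co-variation past the threshold numbered 0 to 3 for members with marker lists and 0 to 1 for pairs of members (1 without KO replicate 5, Serpine2 with Serpinf1). The microglia difference ran from -0.043 to 0.043, the mural from -0.029 to 0.093 and the GABAergic from -0.12 to 0.055. When replicate numbers entered as a block, 1 member passed, with Serpina3n at -0.91, and 4 genes in all as without it. The SE was smaller with the block for Serpine2 (0.076 beside 0.118), Serping1 (0.125 beside 0.174), Serpinf1 (0.126 beside 0.172) and Serpinh1 (0.096 beside 0.117). It was also smaller for Serpina3n and Serpini1, and larger for Serpinb6a and Serpinb1a. The deviations of same-numbered libraries correlated at -0.08 to 0.09 over all genes and at -0.44 to 0.60 over genes above a mean log2 CPM of 5. Not every pair was over 0.1 in either, and no source pairs the pools, so the numbers were not taken as pairs. Members near 5 CPM rest on as few as 140 reads in a library, which limits their precision.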
